A study of Mus musculus with 22 samples.

Results

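Gene expression of wild-type Activin A gastruloids was compared between 120 h and 96 h, which are 4 of the 22 RNA-seq libraries of the series, 2 at each time. The libraries were chosen by their labels alone, and the comparison ran across all genes. Gastruloids are aggregates of embryonic stem cells that form several of the tissues of the early embryo in culture. The series used mouse embryonic stem cells, endoderm cultures and gastruloids to follow cells that lack all Hox function. The genotype of these 4 libraries is given as wt, the treatment and tissue as Activin A gastruloids and the cell type as mixed cells. All of the stem cells had been kept in medium with 100 ng/ml of LIF, 3 µM of CHIR99021, an inhibitor of GSK-3, and 1 µM of PD0325901, an inhibitor of MEK. Neither the dose of Activin A nor its timing in the gastruloids is given in the sources used here, and the number of stem cell clones and of pooled gastruloids is likewise not given. For comparison, the same times were examined in Hox-/- Activin A gastruloids, which carry the Hox-/- genotype under the same treatment label, and in wild-type Chiron gastruloids, each with 2 libraries per time.

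Activin A is a ligand of the TGF-beta family that signals through the same receptors and SMAD proteins as Nodal. In the embryo, Nodal signalling keeps the epiblast competent and then drives cells through the primitive streak, where mesoderm and definitive endoderm arise. As the axis extends, progenitors at its posterior end supply somites and spinal cord, and the Hox genes are switched on in the order in which they lie in their clusters.

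The libraries differed in depth with time. They held 22505531 and 25806178 counts at 96 h and 9251232 and 9108085 counts at 120 h, and the labels name no batch. A library with 3 counts of a gene, taken here as the floor of detection, corresponded to about 0.125 CPM (counts per 1000000 counts of the library) at 96 h and 0.327 CPM at 120 h. Replicates of a time differed by more than counting error alone (chi-square of their counts over genes, divided by its degrees of freedom, 1.97 at 96 h and 1.40 at 120 h, where counting error alone gives about 1). The labels do not say whether replicates came from separate cultures. The p-values measure only the spread between replicate libraries, estimated over the 8 Activin A libraries of both genotypes. Gene classes other than protein-coding genes moved in blocks between the times. Of 1384 processed pseudogenes tested, 1021 were at least 2-fold lower at 120 h, 73.8% of them, with a median log2 fold change of -2.39. In the same interval the median of pseudogenes was -3.01 in Hox-/- Activin A gastruloids and -1.55 in Chiron gastruloids. Their share of all counts was 0.857 and 0.895% at 96 h and 0.553 and 0.595% at 120 h. Among 243 pseudogenes whose 146 parent genes were also tested, the median was -1.93 for the pseudogenes and -0.09 for the parents. Eef1a1-ps1, for instance, was at 37.2 and 42.9 CPM at 96 h and 9.404 and 12.96 CPM at 120 h, while its parent Eef1a1, a translation elongation factor, did not pass the test (log2 fold change 0.06). Small nucleolar RNAs had a median of 1.14 and long intergenic RNAs one of 0.71. The ribosomal RNA gene annotated as CT010467.1 was at 1014 and 949 CPM at 96 h and 3569 and 3486 CPM at 120 h. What the shifts in depth, pseudogene reads and ribosomal RNA contribute to the results below was not tested, and the counts of protein-coding genes are therefore given beside those of all genes.

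Most genes tested differed between the times. By edgeR's quasi-likelihood test at a Benjamini-Hochberg adjusted p under 0.05, 74.9% of the 16831 genes tested were called, with 37.2% higher and 37.8% lower at 120 h. Calls of at least 2-fold took in 15.1% of the genes as higher and 15.0% as lower. Among 13801 protein-coding genes the same calls came to 12.9% higher and 9.87% lower. Over all 16831 genes, processed pseudogenes included, the larger changes ran to 435 genes at least 8-fold higher and 776 at least 8-fold lower. Counts at 8-fold for protein-coding genes alone are not given here. In 156 called genes the libraries of the 2 times overlapped in CPM. Of the genes called lower, 749 were at the floor in both 120 h libraries, and 538 of those were processed pseudogenes. Where a group lies wholly at the floor, a fold is given below as a lower bound. The libraries are from whole gastruloids, in which fewer cells of a type and less RNA per cell cannot be told apart.

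**Figure D1:**
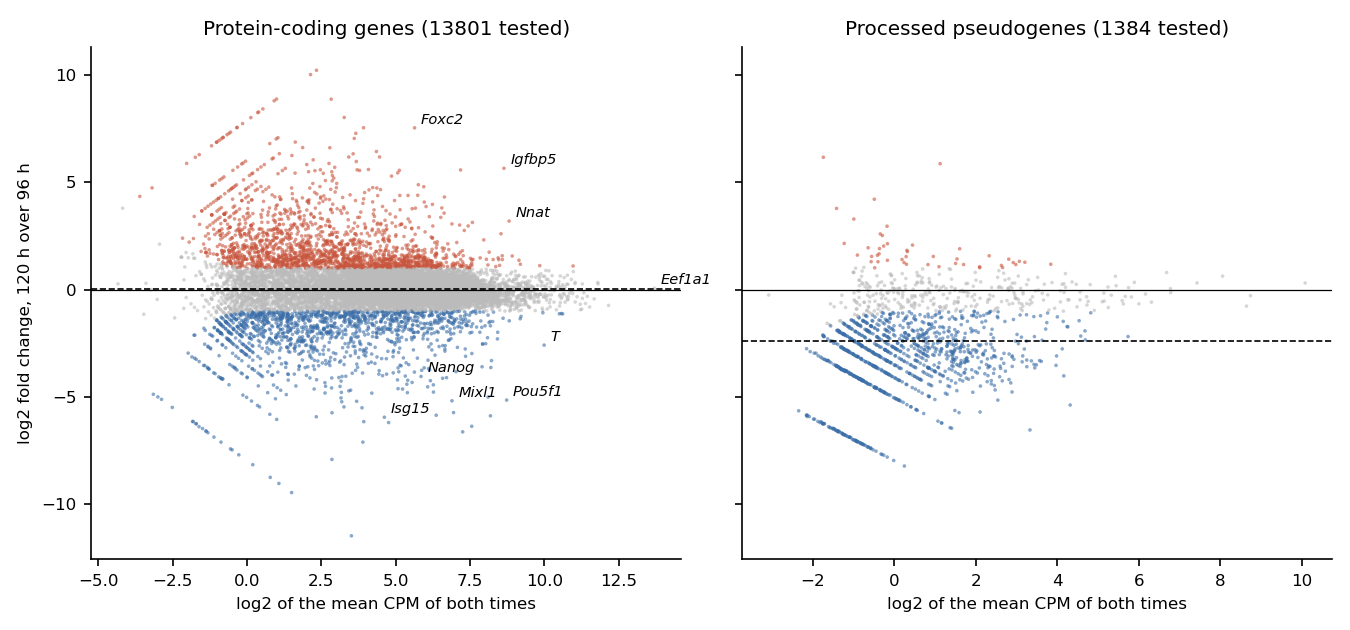
Log2 fold change of 120 h over 96 h (vertical axis) against the log2 of the mean CPM of both times (horizontal axis) for 13801 protein-coding genes (left) and 1384 processed pseudogenes (right), with 1 point per gene. Red and blue points are calls of at least 2-fold, grey points are other genes, and the dashed line is the median of the panel, which lies at 0.01 for protein-coding genes and at -2.39 for pseudogenes.

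The increases with the smallest p were led by Igfbp5 and Meox1. Igfbp5 (ENSMUSG00000026185, mm10 chromosome 1, 72857932 to 72874884, minus strand), a secreted protein that binds insulin-like growth factors, was at 13.4 and 15.97 CPM at 96 h and 797 and 768 CPM at 120 h. Its log2 fold change of 5.65 ± 0.056 (SE) had the smallest p of all increases (edgeR adjusted p = 3.27e-53). Meox1 (ENSMUSG00000001493, chromosome 11, 101877510 to 101894374, minus strand), a homeobox factor of somites, stood at 5.24 and 6.01 CPM and then at 278 and 290.3 CPM. For Nnat, an imprinted gene that encodes neuronatin, the libraries gave 82.2 and 86.6 CPM followed by 782 and 847 CPM. H19 (ENSMUSG00000000031, chromosome 7, 142575529 to 142578143, minus strand), an imprinted long noncoding RNA, went from 10.3 and 9.14 to 277 and 277 CPM. Col2a1, the collagen of cartilage and notochord, was measured at 35.99 and 38.5 CPM and later at 350.3 and 339 CPM. Cxcl12, the chemokine ligand of Cxcr4, rose from 9.38 and 8.72 to 189.6 and 189.8 CPM. The 120 h libraries lay above the 96 h libraries in each of these 6 genes, as the rule that named them required.

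Further increases by the same ranking were seen in Smoc1, which encodes a matrix protein that modulates BMP signals (37.4 and 37.4 to 313 and 304 CPM), and Fbn2, a fibrillin of elastic microfibrils (12.1 and 11.7 to 177 and 174 CPM). Col26a1 moved from 3.999 and 4.11 to 115 and 123 CPM. Hmga2, a chromatin protein of proliferating embryonic tissue, was at 102 and 98.7 CPM at 96 h and 666 and 621 CPM at 120 h. Vegfa, the main growth factor of blood vessels, was at 38.7 and 39.1 CPM and then 274 and 281 CPM. Genes that started near the floor gained most. Foxc2 (ENSMUSG00000046714, chromosome 8, 121116171 to 121118895, plus strand), a forkhead factor of paraxial mesoderm, went from 0.533 and 0.465 to 103 and 94.9 CPM, a log2 fold change of 7.54 ± 0.12 (SE). Sim1, a bHLH-PAS factor, was at 0.222 and 0.0775 CPM before and 26.5 and 23.6 CPM after, and Vtn, which encodes the adhesion protein vitronectin, was at 0.222 and 0.116 and then 23.4 and 24.9 CPM. The kinesin gene Kif12 stood at 0.222 and 0.0775 CPM at 96 h and 29.6 and 30.4 CPM at 120 h. Hoxb5os, which is antisense to Hoxb5, had 0.0444 and 0.194 CPM at first and 38.05 and 40.7 CPM later, and without knowledge of how strand was used in counting, its reads and those of Hoxb5 cannot be told apart.

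The decreases with the smallest p were led by Pou5f1 and Tdgf1. Pou5f1 (ENSMUSG00000024406, mm10 chromosome 17, 35506018 to 35510772, plus strand), which encodes the pluripotency factor OCT4, was at 831 and 818 CPM at 96 h and 23.02 and 26.1 CPM at 120 h (log2 fold change -5.14 ± 0.057 (SE), edgeR adjusted p = 5.83e-51). Tdgf1 (ENSMUSG00000032494, chromosome 9, 110939603 to 110946158, minus strand), the co-receptor of Nodal known as Cripto, fell from 567 and 576 to 9.51 and 10.98 CPM. Pim2, a serine/threonine kinase, gave 544 and 520.4 CPM and then 18.1 and 16.9 CPM. Alox15, a lipoxygenase, declined from 299 and 304 to 3.67 and 2.75 CPM, and Sprr2a3, one of a family of near-identical cornified envelope genes whose reads may be shared, from 389.7 and 353 to 3.999 and 5.49 CPM. Igfbp3, a second binding protein of insulin-like growth factors, was at 541 and 542 CPM at 96 h and 46.3 and 46.00 CPM at 120 h, opposite to Igfbp5. Epha1, an ephrin receptor that overlaps Zyx on the other strand, dropped from 447 and 434 to 40.2 and 36.7 CPM. Apln (ENSMUSG00000037010, chromosome X, 48025146 to 48034853, minus strand), the peptide ligand of the apelin receptor, was at 253 and 229.6 CPM before and 5.41 and 4.17 CPM after. Nkx1-2, a homeobox gene of axial progenitors, went from 555 and 523 to 62.4 and 52.5 CPM, and Wnt8a, a Wnt ligand of the streak, from 246 and 239 to 16.97 and 19.2 CPM. Cpxm2, a carboxypeptidase-like protein, was at 53.5 and 53.3 CPM at 96 h and 0.865 and 0.659 CPM at 120 h, and Olfr539, an olfactory receptor gene, at 27.8 and 29.1 and 1.08 and 0.2196 CPM. In each of these genes both 96 h libraries lay far above both 120 h libraries. For all but Cpxm2 and Olfr539, the rule that named them required libraries without overlap.

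Gene lists for tissues, pathways and cell functions, 52 in all, were used to order the comparison. Each list is described by how many of its tested members were called higher or lower and by the median log2 fold change of its members. Across all genes tested, the same quantities were 37.2% higher, 37.8% lower and a median of 0.0002. Presomitic and somitic mesoderm, lateral plate mesoderm, cardiac transcription factors, neural progenitor factors, Hedgehog pathway and Hox genes had medians above 2. With only genes of at least 10 counts in every library, these medians were 1.04, -1.06, 0.04, 0.69, 0.79 and -0.73 in the same order. That filter covers all 8 Activin A libraries, so it removes members near the floor at 1 time or in Hox-/- gastruloids. In the Hox-/- libraries only 10 and 6 (96 h) and 9 and 10 (120 h) of the 39 Hox genes had more than 3 counts. The last median therefore rests on few Hox genes. Medians of MHC and interferon-response genes and of germ cell genes lay below -2.

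**Figure D2:**
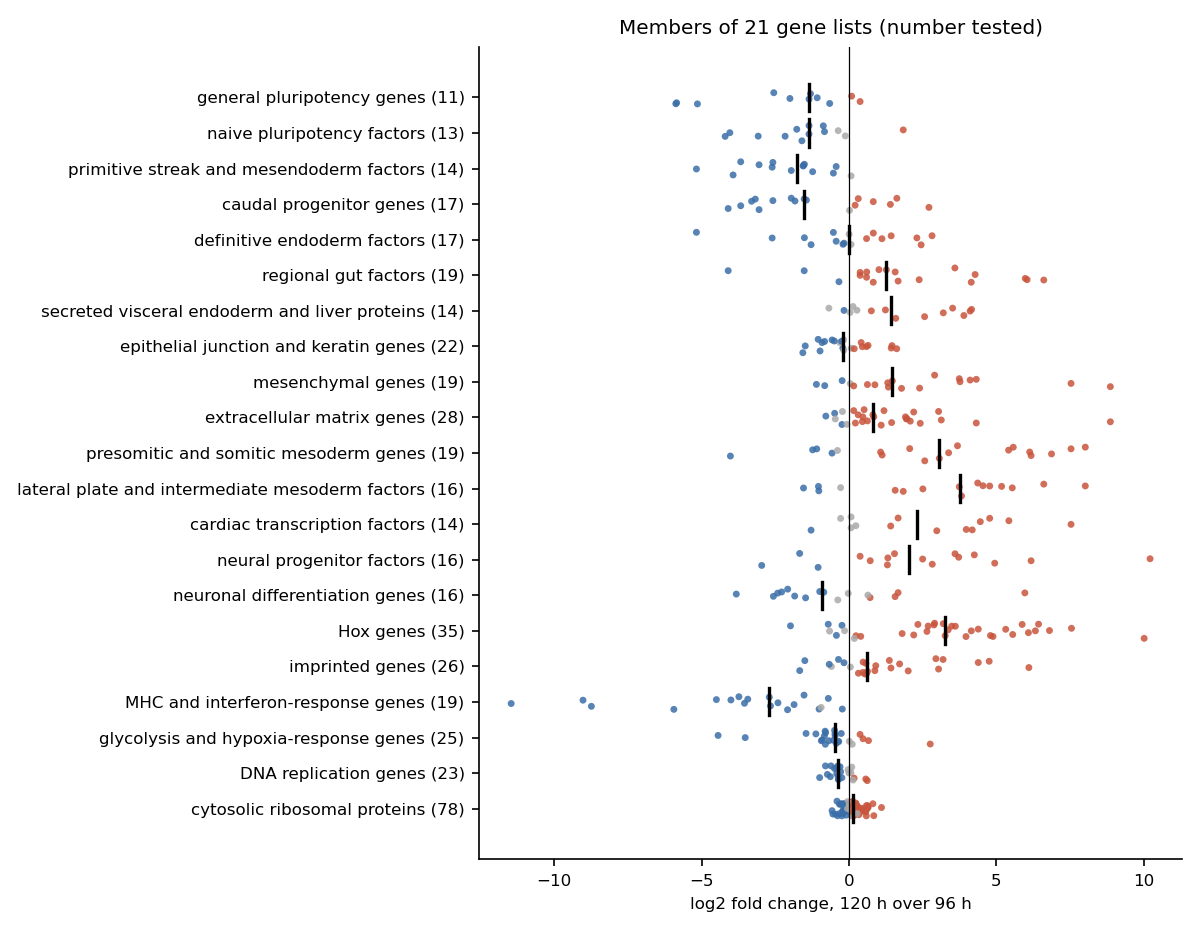
Log2 fold change of 120 h over 96 h (horizontal axis) for every tested member of 21 of the 52 gene lists (rows, with the number tested). Each point is a gene, red where called higher, blue where called lower and grey where not called, and the black bar is the median of the list, which ranges from -2.71 for MHC and interferon-response genes to 3.78 for lateral plate and intermediate mesoderm factors.

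Genes of pluripotency were lower at 120 h with few exceptions. Of 11 general pluripotency genes tested, 9 were called lower and 2 higher (median -1.36), and of 13 naive pluripotency factors, 10 were called lower and 1 higher (median -1.36). Nanog (ENSMUSG00000012396, chromosome 6, 122707489 to 122714633, plus strand), a homeobox factor of the naive state, was at 109 and 108 CPM at 96 h and 8.21 and 5.599 CPM at 120 h. L1td1, an RNA-binding protein of pluripotent cells, fell from 160.3 and 162 to 3.13 and 2.75 CPM. Klf5, a zinc finger factor, fell from 65.4 and 60.7 to 3.13 and 4.06 CPM, and Fgf4, the FGF ligand of the inner cell mass, from 21.5 and 18.1 to 2.702 and 2.196 CPM. Utf1, a chromatin factor of embryonic stem cells, was at 32.2 and 28.1 CPM and then 5.19 and 5.599 CPM, and Dppa5a at 98.3 and 90.3 and 31.8 and 33.8 CPM. Other members moved differently. Sox2 (ENSMUSG00000074637, chromosome 3, 34650405 to 34652461, plus strand), which acts in pluripotent cells and in neural progenitors, rose slightly from 32.8 and 30.4 to 43.02 and 43.3 CPM. Sall4 changed least among the general genes, from 218 and 209.5 to 239 and 239 CPM (log2 fold change 0.09), and its call was lost without 96 h replicate 2 (0.06) and without either 120 h library (0.09 and 0.10). Tbx3, a T-box factor that also marks lateral plate mesoderm, was the naive list's only increase (1.78 and 1.71 to 6.05 and 7.14 CPM). Zfp42 did not pass the test (4.22 and 4.69 and then 3.78 and 3.51 CPM), and Dppa3 and Tcl1 were too low to be tested.

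Because Nanog and Sox2 moved in opposite directions, the 250 bases before their annotated starts are shown here from the RefSeq promoter table of build GRCm38.p6. They were searched on both strands for the octamer core ATGCAAA, which reads as TTTGCAT on the opposite strand, the motif bound by POU factors such as OCT4. Capitals mark the match, which starts 75 bases before the start in Nanog and 99 bases before it in Sox2. These are starts of the RefSeq table, and that of Sox2 lies upstream of the start in the deposited table, as given above.
Nanog, chr6:122707239-122707488, plus strand: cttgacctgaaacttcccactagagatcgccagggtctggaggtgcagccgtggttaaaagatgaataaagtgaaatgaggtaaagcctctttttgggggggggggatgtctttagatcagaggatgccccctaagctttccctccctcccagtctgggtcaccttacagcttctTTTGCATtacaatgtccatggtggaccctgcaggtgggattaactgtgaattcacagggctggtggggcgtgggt
Sox2, chr3:34649745-34649994, plus strand: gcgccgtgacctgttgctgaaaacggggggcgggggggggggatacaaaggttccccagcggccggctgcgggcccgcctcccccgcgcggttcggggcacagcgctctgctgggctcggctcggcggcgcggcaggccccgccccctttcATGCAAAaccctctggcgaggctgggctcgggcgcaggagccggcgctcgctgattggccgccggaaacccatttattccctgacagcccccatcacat
Of 27 genes on the naive and general pluripotency lists, 18 had an entry in the table, and the motif occurred in 3 of them, Nanog, Sox2 and Zfp42. Of all 27025 symbols in the table, 4.65% held it in the same window. The 3 genes with the motif were lower, slightly higher and not called, respectively, at 120 h.

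Genes of the primed epiblast, the state just before gastrulation, were mostly lower as well, with 11 of 14 called lower, 2 higher and a median of -0.95. Fgf5, the classic marker of that state, was at 126 and 137 CPM at 96 h and 36.5 and 35.6 CPM at 120 h. Dnmt3b, a de novo DNA methyltransferase, fell from 441 and 451 to 174 and 162 CPM. Pou3f1, a POU factor, went from 13.8 and 12.9 to 3.78 and 2.75 CPM. Otx2, which serves the epiblast, anterior endoderm and brain, was at 94.5 and 113 CPM and then 104 and 114 CPM, with overlapping libraries and no call. Sox4, an HMG-box factor expressed in many progenitors, rose from 90.7 and 90.8 to 208 and 206 CPM.

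Primitive streak and mesendoderm factors moved almost wholly downwards, with 13 of 14 called lower, none higher and a median of -1.76. T (ENSMUSG00000062327, chromosome 17, 8434423 to 8442496, plus strand), the T-box factor Brachyury, was at 1769 and 1691 CPM at 96 h and at 296 and 313 CPM at 120 h. Mixl1 (ENSMUSG00000026497, chromosome 1, 180693043 to 180697034, minus strand), a homeobox factor of mesendoderm, fell furthest, from 235 and 225 to 7.03 and 6.37 CPM. Eomes, the T-box factor of the anterior streak, was at 167 and 178 CPM at 96 h and 32.8 and 27.01 CPM at 120 h. Gsc, the homeobox gene of the organizer, went from 55.8 and 60.02 to 23.8 and 18.99 CPM. The smallest declines were in Foxa2 (75.8 and 85.9 to 64.96 and 61.3 CPM) and in Cer1, a secreted Nodal and Wnt antagonist (137 and 157 to 108 and 107 CPM). Mesp1, a bHLH factor of early mesoderm, was low and not called (1.96 and 2.44 and then 2.702 and 2.196 CPM). At 120 h, T, Cer1, Lhx1 and Foxa2 were each still above 60 CPM, while Mixl1 and Wnt3 were under 8 CPM.

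Within the Nodal and Activin pathway, the ligand Nodal, its co-receptor and the secreted inhibitors Lefty1, Fst and Cer1 fell, while 3 receptors rose slightly. Of 19 members tested, 11 were called lower and 4 higher (median -0.53). Nodal itself was at 117 and 117 CPM at 96 h and 41.8 and 41.8 CPM at 120 h. Foxh1, the partner of SMAD2 on target genes, declined from 154 and 138 to 47.2 and 45.2 CPM. Among inhibitors, Lefty1 fell from 647 and 655 to 248 and 254 CPM and Fst, which binds Activin directly, from 531 and 557 to 149 and 141 CPM. Lefty2 was close to level (221 and 229 and then 244 and 237 CPM) and was not called. The receptors Acvr1b, Acvr2a and Acvr2b were called higher, with log2 fold changes of 0.14, 0.46 and 0.67, of which that of Acvr1b was not called without 96 h replicate 2 (0.06) or either 120 h library (0.15 and 0.15). Smad3, which carries the signal to the nucleus, rose from 50.2 and 50.3 to 109 and 111 CPM. Smad2 and Smad7 were not called, with log2 fold changes of 0.08 and 0.16. Inhba, which encodes the subunit of Activin A, was at or under the floor at 96 h and at 0.216 and 0.439 CPM at 120 h, too low to be tested.

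Posterior progenitor genes and the genes of their mesodermal progeny moved apart. Caudal progenitor genes had 10 of 17 members lower, 6 higher and a median of -1.52. Cdx1, a caudal-type homeobox gene, was at 209.9 and 184 CPM at 96 h and 13.4 and 10.8 CPM at 120 h, while its paralog Cdx2 went from 248 and 242 to 88.8 and 91.2 CPM. Evx1, a homeobox gene beside the Hoxa cluster with an antisense partner, declined from 132 and 122 to 9.51 and 11.4 CPM. Greb1 and Epha5 were called against the direction of the list, from 77.6 and 75.95 to 215 and 213 CPM and from 0.933 and 0.736 to 6.27 and 5.27 CPM.

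Presomitic and somitic mesoderm genes were more often higher than lower. Of 19 tested, 14 were called higher and 4 lower, with a median of 3.07. The 2 lowest members act in the presomitic mesoderm next to the tail bud: Msgn1 fell from 77.2 and 72.9 to 5.51 and 4.17 CPM, and Tbx6 from 42.3 and 37.4 to 18.5 and 17.1 CPM. Hes7, the clock repressor, and Dll3, a Notch ligand of the same tissue, were also lower, with log2 fold changes of -0.58 and -1.09. Mesp2, which positions the segment boundary, was at 0.889 and 0.698 CPM at 96 h and 8.21 and 9.22 CPM at 120 h. Ripply2, its repressor, was at the floor at 96 h (0.0889 and 0 CPM) and at 6.05 and 6.15 CPM later, at least 48.9-fold higher. Tcf15, a bHLH factor of epithelial somites, went from 3.82 and 3.22 to 48.6 and 46.2 CPM. Pax3, which marks the dermomyotome and the dorsal neural tube, went from 0.533 and 0.581 to 43.6 and 43.04 CPM. Uncx, a gene of the posterior part of each somite, was at 0.3999 and 0.116 CPM and then 11.9 and 11.2 CPM. Tbx18, its counterpart in the anterior part, was at the floor at 96 h and at 19.02 and 19.3 CPM at 120 h, at least 154-fold higher. Meox2 was at least 29.2-fold higher, at 4.76 and 2.52 CPM. Pax1, the marker of the sclerotome, reached 1.84 and 1.098 CPM from 0.355 and 0.116 CPM. Of muscle determination genes, Myf5 was not called (1.33 and 1.12 and then 0.973 and 0.988 CPM) and Myod1 was too low to be tested.

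**Figure D3:**
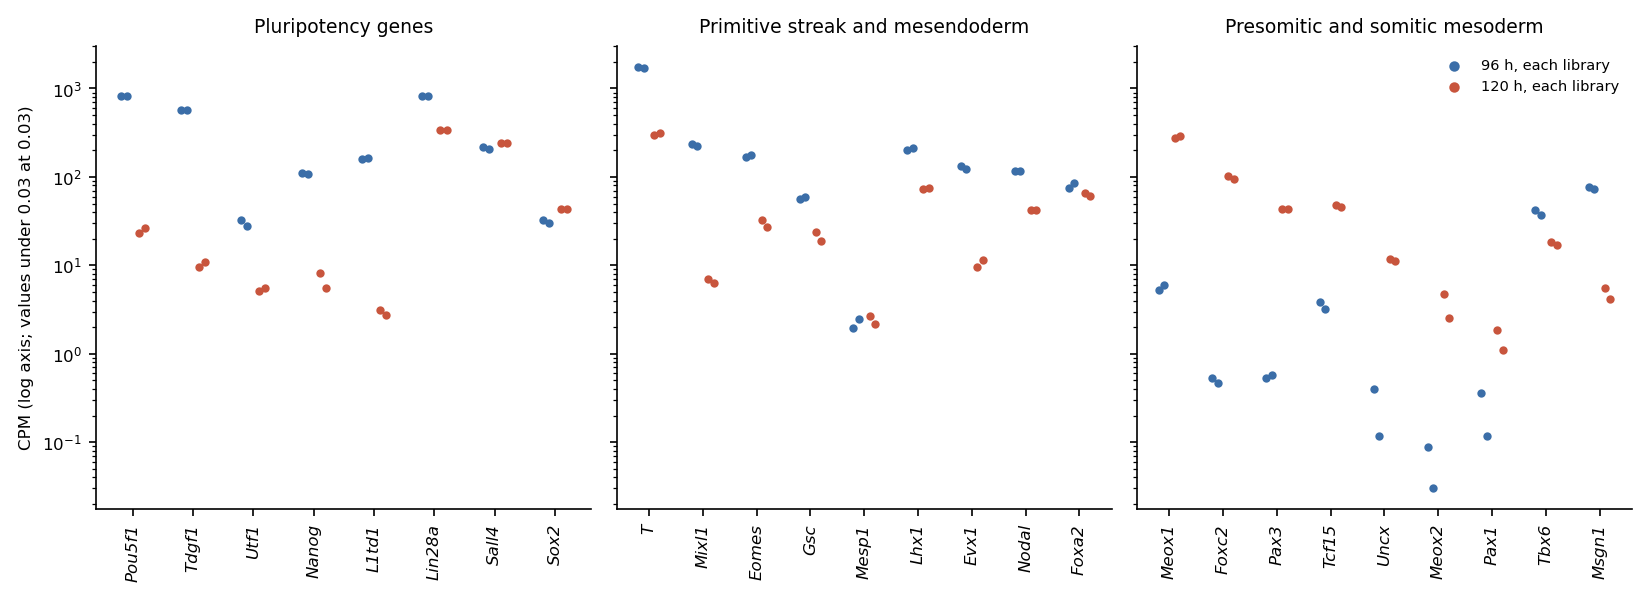
CPM of each library on a log axis for pluripotency, primitive streak, and presomitic and somitic mesoderm genes, with 96 h libraries in blue and 120 h libraries in red, 2 per time, and values under 0.03 CPM drawn at 0.03. The 2 libraries of a time lie close together, and Pou5f1, T and Mixl1 are lower at 120 h while Meox1, Foxc2 and Pax3 are higher.

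Lateral plate and intermediate mesoderm factors had the highest median of all lists, 3.78, with 12 of 16 called higher and 3 lower. Foxf1, a Hedgehog-responsive forkhead factor of splanchnic mesoderm, was at 0.533 and 0.659 CPM at 96 h and 15.7 and 14.3 CPM at 120 h. Osr1, a zinc finger factor of intermediate mesoderm, went from 0.222 and 0.0387 to 13.5 and 13.7 CPM. Prrx1, a homeobox gene of limb and body wall mesenchyme, went from 0.622 and 1.201 to 13.3 and 13.2 CPM, and Wt1, a gene of the urogenital ridge and epicardium, from 0.355 and 0.465 to 5.84 and 6.697 CPM. Gata3 was at 0.578 and 0.465 CPM before and 12.97 and 9.88 CPM after. Hand2 was at the floor at 96 h and at 2.38 and 1.65 CPM at 120 h, at least 16.1-fold higher, but has an antisense neighbour. Hand1, by contrast, was not called (1.42 and 1.36 and then 0.865 and 1.54 CPM). Bmp4, Emx2 and Lhx1 were the lower members. The list's summed level, led by Lhx1, was 238 and 247 CPM at 96 h and 199 and 193 CPM at 120 h. With its 3 members that were at the floor at 96 h set to their bounds, the median of the list was 3.43, and no other list's median moved in this way.

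Cardiac lists had more members higher than lower. Of 14 cardiac transcription factors tested, 9 were higher, 1 was lower and the median was 2.32. Nkx2-5, the homeobox factor of cardiac progenitors, was at the floor at 96 h and at 1.95 and 2.52 CPM at 120 h, at least 17.9-fold higher. Gata5 went from 0.267 and 0.542 to 7.24 and 8.89 CPM, Tbx20 from 0.7998 and 0.465 to 5.08 and 5.38 CPM and Hey2, a Notch target of ventricular precursors, from 0.844 and 0.814 to 14.2 and 13.6 CPM. Isl1, a marker of second heart field and motor neurons, rose from 9.82 and 8.099 to 31.9 and 27.8 CPM. Gata6, which serves endoderm and heart, fell from 48.1 and 50.4 to 21.8 and 20.8 CPM, and Gata4 was not called (9.82 and 10.9 and then 11.6 and 11.4 CPM). Sarcomere and cardiomyocyte genes had 10 of 16 higher and 3 lower (median 1.23). Myh7, a cardiac myosin heavy chain, was at 0.311 and 0.581 CPM at 96 h and 6.27 and 4.94 CPM at 120 h. Myl7, the atrial light chain, and Tnnt2, cardiac troponin T, were not called, at 2.16 and 0.768 CPM and 0.5405 and 0.549 CPM at 120 h. The cardiomyocyte genes Nppa, Nppb, Pln, Bmp10 and Csrp3 had 0 counts in all 4 libraries.

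Endothelial genes were called in both directions. Among 16 endothelial genes tested, 6 were higher, 4 lower and 6 not called (median 0.60). Kdr, the VEGF receptor of angioblasts, was at 3.599 and 2.75 CPM at 96 h and 24.1 and 31.4 CPM at 120 h, and Fli1, an ETS factor, went from 0.533 and 0.426 to 6.16 and 6.59 CPM. The endothelial adhesion gene Pecam1 was not called (1.96 and 1.395 and then 1.19 and 1.098 CPM). Aplnr, the apelin receptor of early mesoderm, fell from 356 and 363 to 95.1 and 96.2 CPM, and its ligand Apln was lower too, as given above. Tal1, which begins blood formation, was at 0.0889 and 0.271 CPM before and 3.78 and 4.39 CPM after. The globin genes Hbb-bh1, Hbb-y and Hba-x had 0 counts in every library, and 7 of the 15 blood genes were at the floor at both times.

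The endoderm lists moved in both directions. The 17 definitive endoderm factors had 7 members higher and 8 lower, with a median of 0.006. Sox17, the factor that specifies the layer, was at 56.7 and 65.3 CPM at 96 h and 57.4 and 57.3 CPM at 120 h, a call of only -0.17 on the log2 scale with overlapping libraries. That call was lost without 96 h replicate 2 (-0.06) and without either 120 h library (-0.17 and -0.16). Foxa1, a pioneer factor of gut endoderm, rose from 13.1 and 15.5 to 32.97 and 32.6 CPM. Hnf4a, the nuclear receptor of liver and gut, went from 0.578 and 0.388 to 3.89 and 3.29 CPM. Cxcr4, the receptor used to sort early endoderm, was at 59.5 and 67.3 CPM and then 120.4 and 117 CPM. Factors of regions of the gut tube were mostly higher, with 16 of 19 called higher, 3 lower and a median of 1.27. Pax9, of the pharyngeal pouches, was at 0.222 and 0.0387 CPM at 96 h and 10.2 and 8.23 CPM at 120 h, and Tbx1, of the pharynx, at 0.533 and 0.426 and 6.16 and 6.15 CPM. Nkx2-3, of gut mesenchyme, was at the floor first and then at least 15.3-fold higher, at 2.05 and 1.76 CPM. Pyy, which encodes a gut peptide hormone, was at the floor at 96 h and at 1.41 and 2.31 CPM later, at least 14.9-fold higher. Trh, the gene of thyrotropin-releasing hormone, stood out by level, at 533 and 638 CPM and then 907 and 966 CPM. Cdx1 and Cdx2 were among the 3 lower members. The lung and thyroid factor Nkx2-1 was at or under the floor at both times, and Pdx1, of pancreas and duodenum, was at 0.133 and 0.155 and 0.432 and 0.439 CPM, below the filter.

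Secreted proteins of visceral endoderm and liver were low, with 9 of 14 tested members higher, 1 lower and a median of 1.41. Apoa1 went from 0.222 and 0.388 to 7.35 and 4.61 CPM, and Ttr, the thyroid hormone carrier, from 0.355 and 0.116 to 3.78 and 3.62 CPM. Afp, alpha-fetoprotein, was at the floor at 96 h and at 0.865 and 0.878 CPM at 120 h, at least 6.98-fold higher. Dab2, an endocytic adaptor, rose from 6.31 and 5.62 to 19.5 and 18.2 CPM. Apoe, by far the most counted member, fell slightly from 70.6 and 69.6 to 68.4 and 62.9 CPM, a call that was lost without 120 h replicate 2 (log2 fold change -0.10). Alb and Fga had 0 counts in all 4 libraries, and 6 of the 22 listed genes were at the floor at both times. The promoters of Dab2 and Apoe, the most counted riser and the only member called lower, are shown as above, with capitals on the motif GTTAAT, which reads as ATTAAC on the opposite strand and is part of the site bound by HNF1 factors.
Dab2, chr15:6386498-6386747, plus strand: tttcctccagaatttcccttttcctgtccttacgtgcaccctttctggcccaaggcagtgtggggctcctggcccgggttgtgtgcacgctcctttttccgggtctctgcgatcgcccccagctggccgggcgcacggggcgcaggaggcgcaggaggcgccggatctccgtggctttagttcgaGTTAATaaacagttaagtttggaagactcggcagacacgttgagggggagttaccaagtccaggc
Apoe, chr7:19698399-19698648, minus strand: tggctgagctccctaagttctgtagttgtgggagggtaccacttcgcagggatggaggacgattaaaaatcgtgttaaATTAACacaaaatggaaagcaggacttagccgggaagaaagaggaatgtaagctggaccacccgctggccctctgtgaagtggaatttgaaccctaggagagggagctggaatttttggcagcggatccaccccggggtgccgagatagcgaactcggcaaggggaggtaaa
The motif lay 65 bases before the start in Dab2 and 172 bases before it in Apoe. It was present in 9 of the 20 listed genes with a promoter in the table, against 7.49% of all symbols there. The 9 genes included Alb and Fga at 0 counts, Afp, which was higher, and Apoe, which was lower.

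Epithelial and mesenchymal genes were also followed, since cells lose epithelial character when they pass through the streak. Of 22 epithelial junction and keratin genes, 8 were higher and 10 lower (median -0.20). Cdh1, E-cadherin, fell from 408 and 431 to 155 and 161 CPM, and Epcam from 131 and 139.6 to 72.5 and 72.1 CPM. Esrp1, a splicing factor of epithelia, fell from 94.4 and 103 to 33.7 and 36.6 CPM. Krt18 rose from 45.6 and 52.1 to 156 and 161 CPM, and its partner Krt8 less, from 160.4 and 187 to 204 and 210.3 CPM, with no call without 96 h replicate 1 (0.07). Mesenchymal genes had 15 of 19 higher, 3 lower and a median of 1.47. Pdgfra, a receptor of paraxial and other mesenchyme, went from 21.1 and 20.4 to 77.3 and 73.1 CPM, and Foxc1, the paralog of Foxc2, from 5.51 and 6.63 to 90.5 and 84.98 CPM. Twist2 was at 0.533 and 0.3100 CPM at 96 h and 7.999 and 7.36 CPM at 120 h. Vim, Cdh2 and Snai1 were called lower within this list; Cdh2, N-cadherin, went from 283 and 279 to 164 and 170.0 CPM and Vim, vimentin, from 268 and 289 to 138 and 136 CPM.

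Extracellular matrix genes were raised broadly, with 22 of 28 called higher, 3 lower and a median of 0.83. Collagens of connective tissue rose from low levels. Col1a1 was at 0.578 and 0.426 CPM at 96 h and 10.7 and 10.5 CPM at 120 h, and Col3a1 was at the floor at first and then at 13.5 and 14.8 CPM, at least 114-fold higher. Col5a1 went from 23.5 and 22.1 to 130.3 and 126 CPM. Sparc, a matrix glycoprotein that is also abundant in parietal endoderm, was at 31.5 and 33.6 CPM before and 129.9 and 134 CPM after, and the proteoglycan gene Vcan at 44.9 and 46.1 and 223 and 217 CPM. Laminins split, since Lama1 rose from 15.4 and 14.6 to 60.5 and 58.9 CPM and Lamb2 from 19.1 and 21.1 to 56.97 and 58.9 CPM, while Lamb1 (209 and 206 to 129 and 125 CPM), Lamc1 and Lama5 were the members called lower. Fn1, fibronectin, was abundant at both times (544 and 511 and then 629 and 615 CPM).

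Neural genes were mostly higher where they mark progenitors and mostly lower where they mark neurons. Of 16 neural progenitor factors tested, 13 were higher and 3 lower, with a median of 2.02. Sox1, the earliest marker of neural plate, was at 1.155 and 0.736 CPM at 96 h and 11.8 and 14.4 CPM at 120 h, and Pax6 at 0.711 and 0.349 and 11.6 and 9.55 CPM. Ventral spinal cord factors were among the largest gains. Olig2, of motor neuron progenitors, had 0 counts in both 96 h libraries and 10.4 and 9.77 CPM at 120 h, at least 80.7-fold higher, and Nkx6-1 went from 0.133 and 0.775 to 14.5 and 16.9 CPM. Irx3 rose from 12.5 and 13.2 to 34.9 and 32.1 CPM. Sox3 and Msx1 were among the lower members, and Sox3 was at 29.9 and 25.5 CPM and then 14.6 and 13.5 CPM. Of 16 neuronal differentiation genes, 9 were lower, 4 higher and 3 not called (median -0.92). Stmn2 fell from 54.9 and 53.1 to 11.5 and 11.9 CPM and Ina, a neurofilament gene that overlaps Nt5c2, from 66.96 and 60.9 to 5.51 and 3.95 CPM. Crmp1 went from 76.9 and 73.6 to 29.2 and 27.9 CPM. Tubb3, the neuronal tubulin, was not called (6.93 and 7.05 and then 7.24 and 7.25 CPM). Ebf2, a helix-loop-helix factor that neurons share with mesenchyme, was called against the list, from 0.489 and 0.271 to 24.9 and 25.4 CPM.

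Factors of brain regions, neural crest and surface ectoderm varied more. Among 16 brain factors tested, 7 were higher, 4 lower and 5 not called (median 0.73). Gbx2, of the hindbrain and posterior epiblast, fell from 80.4 and 72.8 to 19.02 and 21.3 CPM, while Hesx1, of the anterior forebrain, rose from 0.355 and 0.426 to 6.05 and 4.39 CPM. Six3, which marks forebrain and eye, was not called (0.755 and 1.24 and then 1.62 and 1.76 CPM). In the neural crest list 8 of 11 were higher and 2 lower (median 0.81); Snai2, a repressor of epithelial genes, was at 0.711 and 0.969 and 3.78 and 5.71 CPM, and Sox9 fell from 43.9 and 46.2 to 23.6 and 24.8 CPM. Placode and ectoderm genes had 6 of 11 higher and 4 lower (median 0.49). Eya1, a transcriptional coactivator of placodes, rose from 7.02 and 7.13 to 33.6 and 36.7 CPM, while Grhl3 fell from 14.6 and 17.1 to 4.97 and 6.697 CPM. The epidermal keratin Krt14 was at the floor at both times.

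Node and notochord genes had 6 of 13 higher and 5 lower, with a median of -0.03. Foxj1, the master factor of motile cilia, was at 23.5 and 30.7 CPM at 96 h and 4.22 and 2.75 CPM at 120 h. Nog, a BMP antagonist, rose from 2.62 and 2.79 to 8.43 and 7.91 CPM. Markers of parietal endoderm, an extraembryonic tissue, were higher in 6 of 10 cases and lower in 4 (median 1.02). These genes are not particular to it, since Sparc, Lama1, Lamb1 and Lamc1 are also on the matrix list and Fst on the Nodal list. Of 7 chemokine and apelin genes, 4 were higher and 2 lower (median 0.83).

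Hox genes, which give cells their position along the body axis, were mostly higher at 120 h in each of the 4 clusters. Of 39 Hox genes, 35 were tested, 28 were called higher, 4 lower and 3 were not called, with a median of 3.27. Hoxb1 (ENSMUSG00000018973, chromosome 11, 96365752 to 96368256, plus strand) was the most counted Hox gene at 96 h, with 307 and 289.6 CPM, and stood at 80.96 and 77.6 CPM at 120 h. Hoxb2 fell from 90.2 and 85.99 to 70.04 and 67.96 CPM and Hoxa5 from 19.5 and 18.6 to 17.9 and 16.03 CPM, the last with a log2 fold change of -0.24. The call of Hoxa5 was lost without either 96 h library (-0.21 and -0.28) or without 120 h replicate 2 (-0.15). Hoxa2 (24.1 and 22.6 to 28.2 and 29.8 CPM) and Hoxa3 (27.8 and 27.2 to 37.5 and 38.9 CPM) rose slightly, that of Hoxa2 with no call without 96 h replicate 2 (0.18) or 120 h replicate 2 (0.21). Hoxa4 was not called (6.98 and 6.01 and then 7.13 and 8.34 CPM).

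Tested Hox genes of paralog groups 6 to 9 rose in every cluster. Hoxa7 went from 5.42 and 4.34 to 24.9 and 22.1 CPM and Hoxa9 from 1.64 and 1.12 to 67.2 and 69.2 CPM, whereas Hoxa6 between them was low, at 0.133 and 0.155 and then 1.62 and 0.768 CPM. In the Hoxb cluster, Hoxb3 rose from 12.7 and 12.1 to 95.9 and 97.1 CPM, Hoxb4 from 7.02 and 5.97 to 40.6 and 44.8 CPM, Hoxb8 from 3.38 and 2.94 to 62.1 and 55.99 CPM and Hoxb9 from 3.87 and 3.53 to 84.2 and 78.7 CPM. Hoxb5, Hoxb6 and Hoxb7 lay lower, at 10.7 and 8.78, 7.46 and 8.89, and 5.51 and 4.94 CPM at 120 h. All Hoxc genes tested rose: Hoxc4 to 25.2 and 23.1 CPM, Hoxc5 to 11.8 and 12.3 CPM, Hoxc6 from 0.311 and 0.233 to 23.02 and 23.8 CPM, and Hoxc8 (ENSMUSG00000001657, chromosome 15, 102990607 to 102993821, plus strand) from 0.444 and 0.426 to 39.8 and 40.8 CPM. Hoxc9 went from 0.0444 and 0.349 to 12.97 and 13.6 CPM. In the Hoxd cluster, Hoxd1 rose from 3.999 and 4.07 to 14.9 and 14.8 CPM, Hoxd8 from 2.53 and 1.59 to 27.7 and 24.8 CPM and Hoxd9 from 3.69 and 3.49 to 36.3 and 33.2 CPM. Hoxd3 (9.33 and 7.91 to 144 and 139 CPM) and Hoxd4 (3.78 and 2.98 to 104 and 105 CPM) share exons on the same strand, so their counts are uncertain.

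Posterior Hox genes appeared at 120 h at low levels, except in paralog groups 12 and 13. Hoxa10 went from 0.311 and 0.388 to 9.73 and 11.4 CPM. Genes at the floor at 96 h were Hoxc10, at least 70.3-fold higher at 8.86 and 8.67 CPM, Hoxc11, at least 12.6-fold higher at 1.73 and 1.43 CPM, and Hoxd10, at least 27.00-fold higher at 4.11 and 2.63 CPM. Hoxd11 and Hoxa11 followed with at least 28.3-fold and 16.6-fold increases, to 4.54 and 2.52 and 2.16 and 1.98 CPM. Hoxa13 (0.178 and 0.465 and then 0.108 and 0.329 CPM) and Hoxd13 (0.3999 and 0.6200 and 0.649 and 0.329 CPM) were not called, and Hoxb13, Hoxc12, Hoxc13 and Hoxd12 were below the filter. Hoxc5 and Hoxc10 overlap on the same strand in the annotation, and Hoxa3, Hoxa7, Hoxa11, Hoxb2, Hoxb3 and Hoxb5 have antisense neighbours, so that part of their counts is uncertain.

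**Figure D4:**
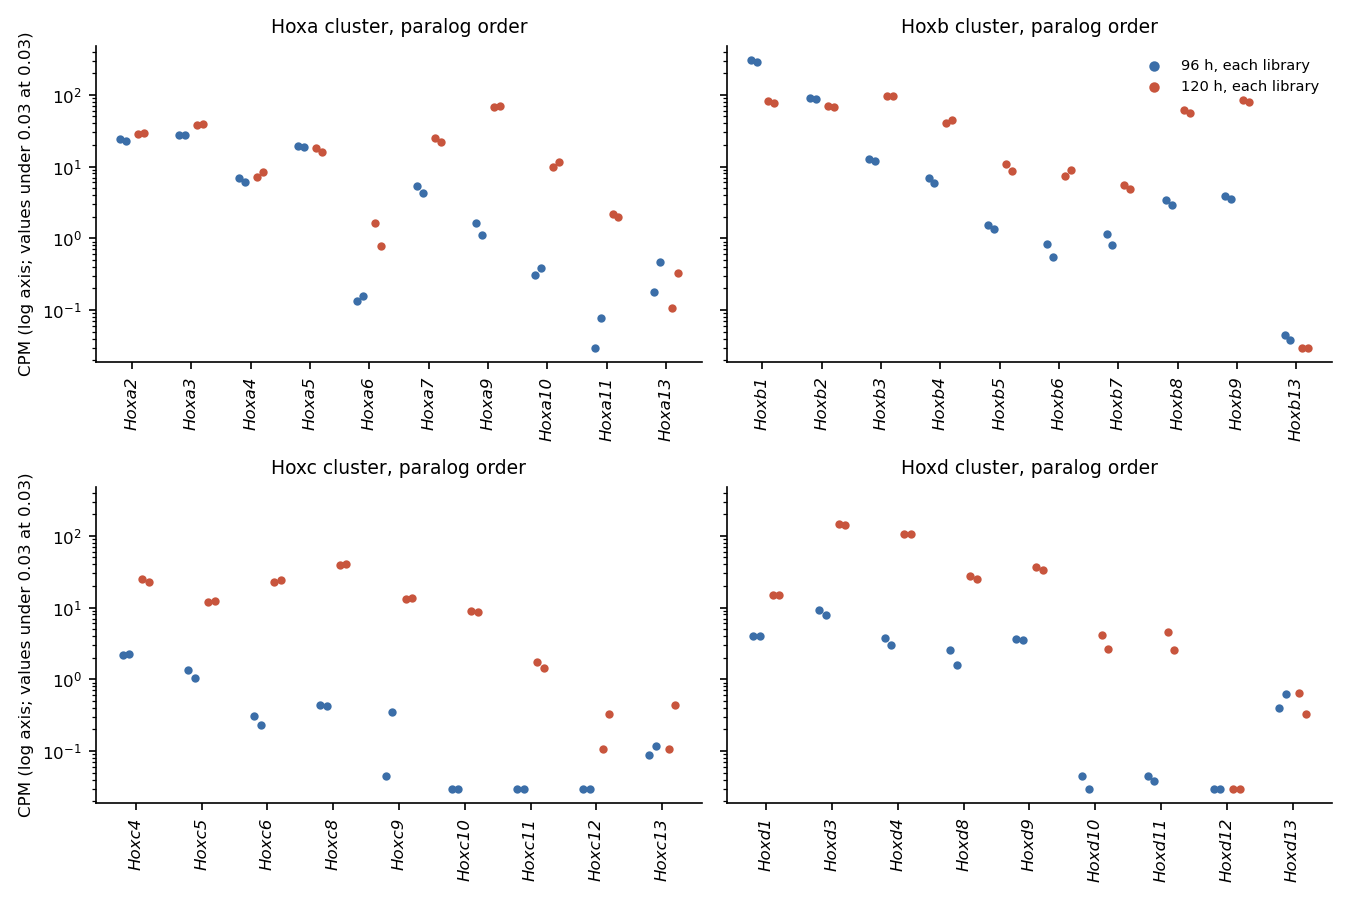
CPM of each library on a log axis for Hox genes, by cluster and in paralog order, with 96 h in blue and 120 h in red, 2 libraries per time, and values under 0.03 CPM drawn at 0.03. Hoxb1 is lower at 120 h, paralogs 3 to 11 are mostly higher, and paralogs 12 and 13 lie under 1 CPM at both times.

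Wnt genes were more often lower, with 17 of 26 tested members lower, 9 higher and a median of -0.67. Among ligands of the streak and tail bud, Wnt3 was at 40.4 and 40.4 CPM at 96 h and 2.38 and 3.18 CPM at 120 h, and Wnt3a at 69.8 and 67.2 and 7.46 and 8.45 CPM. Wnt5a, a ligand of the non-canonical branch, was slightly higher (81.98 and 75.4 to 95.01 and 96.3 CPM), and Wnt4 rose from 3.69 and 3.29 to 12.4 and 12.2 CPM. Among direct targets of canonical signalling, Axin2 fell from 132 and 124 to 50.05 and 50.6 CPM, Sp5 from 143 and 141 to 19.5 and 16.6 CPM and Notum from 26.8 and 28.8 to 3.999 and 4.83 CPM, whereas Lgr5, a receptor of R-spondins, rose from 4.399 and 6.63 to 12.1 and 9.66 CPM. Lef1 and Tcf7, the nuclear partners of beta-catenin, were lower, with log2 fold changes of -0.59 and -1.48. Secreted antagonists of the Sfrp family rose, Sfrp5 from 2.35 and 3.29 to 43.02 and 45.3 CPM, Sfrp2 from 19.2 and 17.4 to 48.4 and 41.2 CPM and Sfrp1 from 82.8 and 84.98 to 159 and 162 CPM, whereas Dkk1 fell slightly (68.3 and 72.7 to 56.1 and 56.98 CPM).

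FGF genes were more often lower than higher. Of 22 members, 13 were lower and 8 higher (median -0.57). Fgf8, a ligand of the streak and tail bud, went from 228 and 226 to 63.02 and 60.1 CPM. Of the feedback inhibitors and targets, Spry4 was at 69.6 and 63.9 CPM at 96 h and 20.6 and 18.3 CPM at 120 h, Dusp4 at 224 and 227 and 87.8 and 81.2 CPM, and Etv5 at 234 and 230.0 and 92.6 and 95.96 CPM. Dusp6 fell less, from 248 and 246 to 178 and 177 CPM, and the feedback inhibitor Spry1 rose, from 20.7 and 22.1 to 39.5 and 43.4 CPM. All 4 receptors were called higher: Fgfr1 from 262 and 251 to 315 and 301 CPM, Fgfr3 from 4.13 and 3.29 to 9.08 and 10.3 CPM and Fgfr4 from 0.578 and 0.3100 to 5.95 and 5.16 CPM. Fgfr2 gained most in counts, from 6.98 and 8.06 to 77.9 and 77.8 CPM, though it overlaps Ctbp2 in the annotation. The ligands that rose were Fgf18 and Fgf9, to 6.16 and 6.48 and 1.84 and 2.75 CPM, and Fgf15, from 18.8 and 18.8 to 24.1 and 24.1 CPM. The call of Fgf15 was lost with DESeq2 and with log2(FPKM + 1).

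Hedgehog pathway genes rose, with 15 of 17 called higher, 1 lower and a median of 2.32. Of the ligands, Shh, made by notochord, floor plate and gut, was at 2.000 and 2.79 CPM at 96 h and 14.5 and 13.4 CPM at 120 h, and Ihh at 0.444 and 0.736 and 4.32 and 3.62 CPM. Targets that report pathway activity rose. Ptch1 (ENSMUSG00000021466, chromosome 13, 63508328 to 63573598, minus strand), the receptor and a direct target, went from 76.96 and 82.1 to 426 and 411 CPM, and Gli1 (ENSMUSG00000025407, chromosome 10, 127329882 to 127341974, minus strand), a transcription factor induced by the pathway, from 28.6 and 31.2 to 253 and 254 CPM. Hhip, a decoy receptor, rose from 1.02 and 0.891 to 11.03 and 9.22 CPM. The co-receptors Boc and Gas1 rose as well, from 8.27 and 7.56 to 119 and 124 CPM and from 53.99 and 51.9 to 158 and 156 CPM. Sufu, the inhibitor of Gli proteins, was the lower member (85.8 and 88.2 to 80.1 and 68.95 CPM), and Gli3 was not called (69.8 and 62.2 and then 74.9 and 70.6 CPM). In Chiron gastruloids over the same interval, the log2 fold changes were -0.36 for Ptch1 and -0.03 for Gli1. The differences between the treatments of 2.66 and 3.02 passed the test (edgeR adjusted p = 4.62e-17 and 2.05e-14). Levels of these genes in Chiron gastruloids are not given here, so a small change does not tell whether they were high or low.

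Retinoic acid genes rose in part. Of 17 tested, 12 were higher and 5 lower (median 0.73). Aldh1a2, the enzyme that makes retinoic acid in mesoderm, was at 54.1 and 55.8 CPM at 96 h and 129 and 114 CPM at 120 h, and Cyp26a1, which degrades it in the tail bud, rose slightly from 100.2 and 105 to 136 and 134 CPM. Crabp1, a cytosolic binding protein, went from 25.1 and 23.3 to 210.4 and 215 CPM, and Stra6, the receptor for retinol uptake, from 15.1 and 15.2 to 77.3 and 75.98 CPM. Rarb, a receptor that is itself induced by retinoic acid, rose from 0.933 and 1.47 to 29.6 and 29.9 CPM, with Top2b on the other strand. Nr2f1, an orphan nuclear receptor, was at 0.267 and 0.271 CPM and then 20.97 and 21.3 CPM, and its paralog Nr2f2 at 1.91 and 2.02 and 33.8 and 36.9 CPM. Rxrg, a partner receptor, fell from 15.6 and 16.4 to 0.757 and 1.21 CPM.

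**Figure D5:**
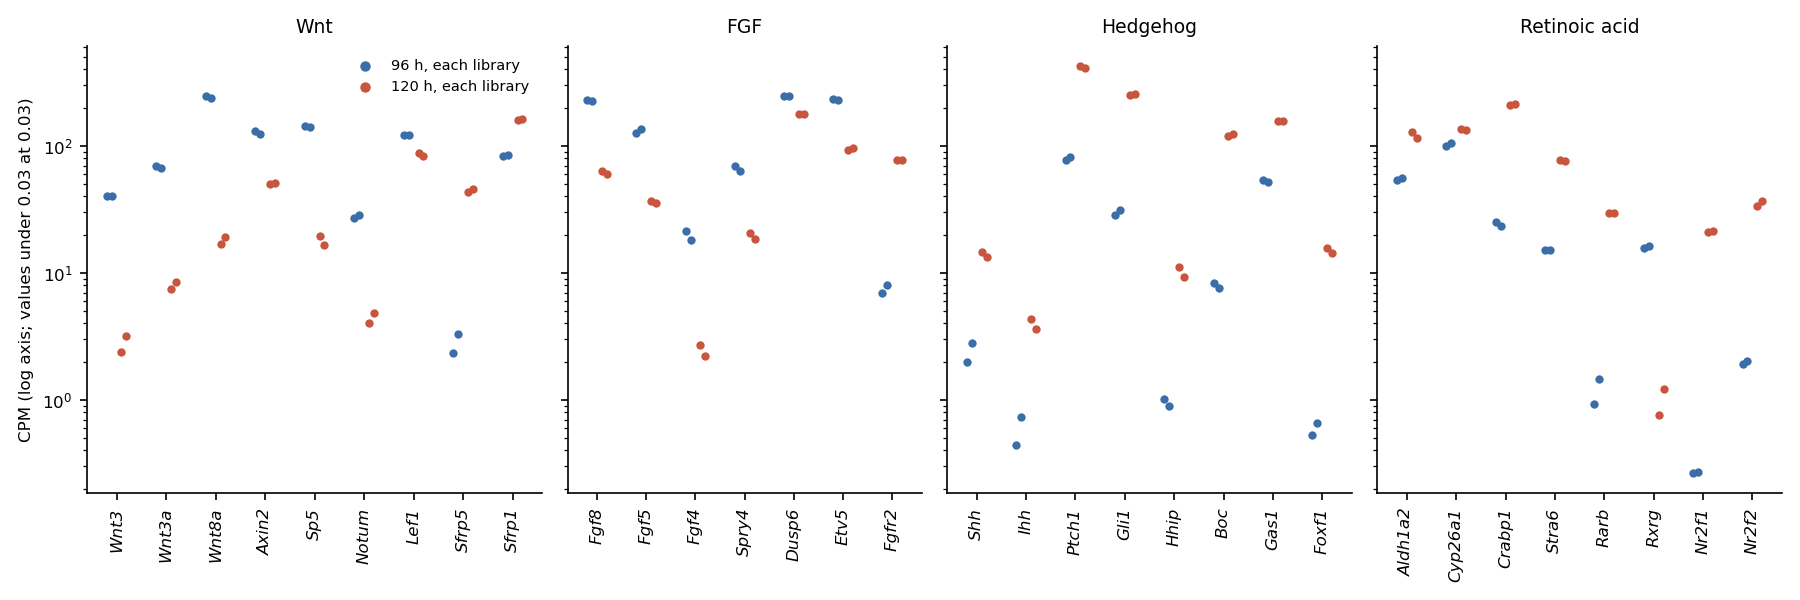
CPM of each library on a log axis for genes of the Wnt, FGF, Hedgehog and retinoic acid pathways, with 96 h in blue and 120 h in red, 2 libraries per time. Wnt3, Sp5, Fgf8 and Spry4 are lower at 120 h, whereas Ptch1, Gli1, Crabp1 and Rarb are higher, with no overlap between the times.

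BMP and Notch genes were more often higher than lower. The BMP list had 13 of 20 members higher and 3 lower (median 0.49). The Id genes, direct BMP targets, rose together: Id1 from 19.5 and 18.4 to 69.3 and 73.2 CPM, Id2 from 15.8 and 17.01 to 131 and 139 CPM and Id3 from 85.8 and 87.6 to 155 and 154 CPM. Among ligands, Bmp2 rose from 5.11 and 7.52 to 19.7 and 19.3 CPM and Bmp4 fell from 23.9 and 19.4 to 11.2 and 10.9 CPM. Msx1, another BMP target, fell from 29.9 and 28.6 to 10.9 and 8.34 CPM. In the Notch list 12 of 20 were higher and 6 lower (median 0.82). The ligand Dll1 rose from 46.2 and 43.9 to 102 and 105 CPM and Lfng, which modifies Notch receptors, from 8.798 and 10.4 to 43.4 and 41.6 CPM. Targets of the Hey family rose, Hey1 from 14.97 and 15.4 to 82.7 and 77.4 CPM and Heyl from 0.355 and 0.6200 to 13.5 and 13.6 CPM, while Hes1 fell slightly, from 92.7 and 97.6 to 88.3 and 77.2 CPM.

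Imprinted genes, which are expressed from 1 parental allele, were higher in 19 of 26 cases and lower in 5, with a median of 0.61. Igf2, the growth factor beside H19, was at 3.38 and 2.75 CPM at 96 h and 74.4 and 60.2 CPM at 120 h, with an antisense gene at the locus. Mest rose from 301 and 306 to 857 and 797 CPM, Peg3 from 781 and 767 to 1519 and 1479 CPM and Plagl1, a zinc finger factor, from 4.35 and 4.22 to 38.5 and 35.9 CPM. Airn, a noncoding RNA of the Igf2r locus, went from 0.489 and 0.194 to 24.8 and 24.5 CPM, and Igf2r was not called (90.6 and 85.6 and then 97.1 and 94.8 CPM). The noncoding RNA Kcnq1ot1 rose from 10.2 and 10.5 to 44.1 and 43.6 CPM. Snrpn fell from 260.3 and 254 to 87.9 and 82.2 CPM, and Rian from 1484 and 1508 to 1020.0 and 961 CPM although Meg3 of the same cluster rose from 1054 and 997 to 1504 and 1509 CPM. Of 10 genes of insulin-like growth factor signalling tested, 5 were higher and 2 lower (median 0.39). Igf1 had 0 counts at 96 h and 0.757 and 1.87 CPM at 120 h, at least 10.5-fold higher, and Igf1r, the receptor, rose from 53.6 and 50.9 to 115 and 117 CPM.

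Regulators of developmental timing and DNA methylation moved in both directions. In the let-7 list 6 of 13 were higher and 5 lower (median -0.02). Lin28a, which blocks let-7 processing, fell from 831 and 818 to 337 and 342 CPM, while its paralog Lin28b rose from 76.9 and 70.5 to 109 and 104 CPM. Igf2bp1, like Hmga2 a let-7 target, was not called (297 and 270.1 and then 293 and 297 CPM). Of the enzymes of DNA methylation and demethylation, 7 of 13 were lower and 4 higher (median -0.26). Tet2, which oxidizes methylcytosine, rose from 9.46 and 8.91 to 47.1 and 44.4 CPM, and Tet1 was not called (52.2 and 45.03 and 46.2 and 48.97 CPM). Germ cell genes had 8 of 11 lower, 2 higher and a median of -2.19. Dnd1 fell from 49.6 and 47.1 to 3.24 and 3.404 CPM, though it overlaps Wdr55 on the other strand, and Tfap2c from 23.9 and 24.2 to 4.97 and 3.62 CPM. Ddx4, the Vasa helicase, was at 3.73 and 3.06 CPM before and at the floor after, at least 10.4-fold lower. In the trophoblast list 4 of 8 were higher and 2 lower (median 0.67), with 4 of the 14 listed genes at the floor at both times.

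MHC and interferon-response genes had the lowest median of the lists, -2.71, with 18 of 19 called lower and none higher. Isg15 (ENSMUSG00000035692, chromosome 4, 156199455 to 156200796, minus strand), a ubiquitin-like protein induced by interferon, was at 49.8 and 46.7 CPM at 96 h and 0.757 and 0.878 CPM at 120 h. Ifit1, an antiviral RNA-binding protein, had 23.7 and 21.8 CPM first and 0 counts in both 120 h libraries, at least 69.6-fold lower. Ifit3 was likewise at 0 counts at 120 h, at least 12.8-fold lower. The transcription factor Irf1 fell from 117 and 119.9 to 19.2 and 20.2 CPM. Bst2, which encodes tetherin, fell from 135 and 126 to 11.2 and 9.33 CPM. In antigen presentation, the class I gene H2-K1 went from 108 and 103 to 38.05 and 39.3 CPM, the immunoproteasome gene Psmb8 from 43.2 and 45.1 to 3.03 and 2.75 CPM and the transporter gene Tap2 from 37.1 and 34.8 to 2.92 and 4.06 CPM. B2m fell less, from 30.8 and 31.6 to 16.9 and 15.7 CPM, and Ifitm2 least (281 and 262 to 256 and 233 CPM). Nlrc5, the activator of class I genes, was low and not called (0.711 and 0.698 and then 0.108 and 0.659 CPM). The interferon-induced genes Rtp4 and Mx2, which are not on the list and were named by the size of their change, were at 30.6 and 29.3 and 30.1 and 30.3 CPM at 96 h and at 0.324 and 0.549 and 0.432 and 0.659 CPM at 120 h. The list's summed level was 1085 and 1036 CPM at 96 h and 412 and 385 CPM at 120 h.

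Genes of energy metabolism fell moderately. Of 25 glycolysis and hypoxia-response genes, 19 were lower and 4 higher (median -0.49). Ldha, lactate dehydrogenase, was at 3069 and 3188 CPM at 96 h and 1757 and 1759 CPM at 120 h, Eno1 at 1972 and 1938 and 936 and 955 CPM and Aldoa at 1753 and 1745 and 942 and 982 CPM. Ndrg1, a stress-induced gene, fell from 61.01 and 68.4 to 5.297 and 6.59 CPM, and Adm, adrenomedullin, from 3.51 and 3.56 CPM to the floor, at least 10.8-fold lower. The 4 higher members included Vegfa, the glucose transporter gene Slc2a3 (380.3 and 406 to 649.8 and 661 CPM) and P4ha1. Mitochondrially encoded subunits were lower in 10 of 11 cases (median -0.83), with mt-Co1 at 3145 and 3231 CPM and then 2248 and 2051 CPM. Mitochondrial genes took 0.939 and 0.968% of counts at 96 h and 0.635 and 0.597% at 120 h. The low values of mt-Atp8, mt-Co2 and mt-Co3, under 11 CPM, are uncertain because near-identical nuclear copies exist. Sterol synthesis genes moved little, with 13 of 20 lower, 3 higher and none by 2-fold (median -0.13).

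Genes of proliferation shifted within a narrow range. DNA replication genes were lower in 15 of 23 cases and higher in 3, none by 2-fold (median -0.36). Mcm3, a subunit of the replicative helicase, went from 377 and 378 to 229 and 228 CPM, and Ccne2, a cyclin of the S-phase entry, rose from 37.7 and 36.2 to 62.05 and 57.6 CPM. Mitosis genes were lower in 15 of 20 cases (median -0.24), as with Ccnb1 (338 and 339 to 236 and 228 CPM), but Mki67 rose from 169 and 158 to 302 and 306 CPM. Cdkn1a, the cell cycle inhibitor p21 and a p53 target, fell from 287 and 278 to 88.96 and 91.5 CPM. The p53 targets as a list had 12 of 15 lower and 2 higher (median -0.48). Genes of cell cycle exit had 6 of 13 higher and 3 lower (median 0.04). Pmaip1, a pro-apoptotic target, fell from 53.9 and 52.9 to 9.19 and 9.77 CPM, whereas Bbc3 had a log2 fold change of only -0.48.

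Lists of translation and stress genes had members called in both directions. Of 78 cytosolic ribosomal protein genes, 44 were higher and 23 lower (median 0.13), and Rps14 alone passed 2-fold, from 1186 and 1262 to 2696 and 2850.0 CPM. Rpl4 was the lowest, from 2476 and 2442 to 1724 and 1757 CPM. These genes have many pseudogene copies, and their counts are uncertain to that extent. Ribosome biogenesis genes were lower in 12 of 19 cases (median -0.27), with Ncl, nucleolin, at 1387 and 1406 CPM and then 771 and 806 CPM. In the integrated stress response list 9 of 15 were higher and 4 lower (median 0.29); Chac1 rose from 3.33 and 2.83 to 10.7 and 9.99 CPM and Atf4 from 244 and 242 to 376 and 363 CPM. Immediate early and heat shock genes had 9 of 15 lower and 2 higher (median -0.44), with Jun rising from 11.9 and 13.9 to 49.5 and 54.8 CPM and Egr1 falling from 21.9 and 22.5 to 9.51 and 7.91 CPM. The housekeeping list had 8 of 14 lower and 2 higher (median -0.30), and Hprt fell most, from 134 and 136 to 58.1 and 52.5 CPM. Among the most counted genes of both times, Eef1a1 led with 12670.0 and 12710.0 CPM at 96 h and 14050.0 and 13880.0 CPM at 120 h. Rpsa, a ribosomal protein, rose from 3123 and 3174 to 4019 and 3971 CPM and Rack1, a ribosome-bound scaffold, from 3052 and 3061 to 3964 and 4143 CPM. The elongation factor gene Eef2 fell from 3692 and 3639 to 2190.0 and 2224 CPM, and Gapdh, a glycolytic enzyme, from 3730.0 and 3603 to 2938 and 2795 CPM. Hsp90ab1, a chaperone, fell from 5525 and 5668 to 3457 and 3631 CPM, and Scd2, a fatty acid desaturase, from 3069 and 3062 to 1723 and 1655 CPM.

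The change with time was compared with that of Hox-/- Activin A gastruloids by an interaction contrast over the 8 Activin A libraries. The change differed for 38.9% of the 16831 genes, and 786 genes were called in both genotypes with opposite signs. Krt18 rose in wild type (1.62) and fell in Hox-/- gastruloids (-2.61), with an edgeR adjusted p of 3.33e-31 for the difference. Cd36, a fatty acid receptor, gave 1.87 in wild type and -2.54 in Hox-/-. In the other direction, Tbx6 was -1.23 in wild type and 1.69 in Hox-/- (edgeR adjusted p = 3.39e-27), and Gata6 was -1.29 and 2.11. Among the epithelial junction and keratin genes, the change differed for 18 of 22. For the Hedgehog pathway 13 of 17 differed, and for MHC and interferon-response genes 9 of 19. Pou5f1 fell in both genotypes, by a log2 fold change of -5.14 in wild type and -7.11 in Hox-/- (edgeR adjusted p of the difference = 2.18e-17). Hox genes are not compared here, because they are the targets of the genotype. As a check of the labels, the 39 Hox genes summed to 660.5 and 624.8 CPM at 96 h and 1190.0 and 1167 CPM at 120 h in wild type, and to 102.3 and 103.8 CPM at 96 h and 63.8 and 69.5 CPM at 120 h in Hox-/- libraries. Hoxa13, chosen after its values were seen, lay between 20.5 and 39.9 CPM in the 4 Hox-/- libraries.

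Against wild-type Chiron gastruloids, fitted in the table that holds both treatments, the change with time differed for 39.6% of 17305 genes. Both interactions use the same wild-type Activin A libraries, and their counts are not independent of each other. Levels in Chiron gastruloids are not given here. A small change there can therefore stand for a gene that was high at both times or low at both. Pou5f1 changed by -0.71 on the log2 scale in Chiron gastruloids, and its difference of -4.45 passed the test (edgeR adjusted p = 3.72e-17). For Tdgf1 the Chiron value was 0.44, against -5.88 with Activin A (edgeR adjusted p of the difference = 7.46e-18). Foxc2 was -0.06 in Chiron and 7.54 in Activin A gastruloids (edgeR adjusted p of the difference = 8.42e-15). Crabp1 fell with Chiron (-2.53) and rose with Activin A (edgeR adjusted p = 1.58e-20), as did Dll1 (-2.08 with Chiron, edgeR adjusted p = 6.14e-18). Igfbp5 had log2 fold changes of 5.20 with Chiron and 5.65 with Activin A. Of the 35 Hox genes tested in the main comparison, 28 differed between the treatments. Hoxc8, for example, was -0.41 with Chiron, and its difference of 6.83 passed the test (edgeR adjusted p = 3.9e-19). Mixl1 fell in both, by a log2 fold change of -4.46 with Chiron and -5.18 with Activin A, and their difference of -0.74 had an edgeR adjusted p of 0.110.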

How the data were processed

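Poly-A RNA was sequenced with a TruSeq Stranded mRNA kit, per the labels' protocols, whose extraction text describes stem cells and endoderm cells; that of the gastruloids is not given in the sources used here. Reads were handled by the authors with cutadapt 1.16, STAR and Cufflinks 2.2.1 on build mm10, per the submitters' processing notes, and the use of strand in counting is not given in the sources used here. The authors deposited whole read counts per gene, of 55141 rows, and FPKM values per gene, which carry the symbols and positions. The 4 libraries have the same values in both count tables of gastruloids.

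Counts were tested with edgeR 4.0.16 (R 4.3.3): genes were filtered with filterByExpr, libraries scaled by TMM, and the quasi-likelihood test run on a model with 1 coefficient per group over all 8 Activin A libraries, with Benjamini-Hochberg adjustment over all genes tested. For the Chiron contrast the model was fitted on the table with both treatments. CPM are counts per 1000000 of the library total, without TMM, so that a ratio of CPM differs slightly from the fitted fold change. Positions are those of the deposited table, and 51299 of its rows match GENCODE M21. Named genes were taken by a rule: per direction the 12 smallest p of at least 2-fold without overlap, and the 10 largest changes with at least 20 CPM in the higher group; the 10 most counted genes at each time; and per list up to 6 called members of smallest p, members against its direction, up to 3 not called, and every Hox gene. Of 321 tested genes named, 51 fall outside this rule and were chosen after their values were seen. Some genes that the rule takes are not reported here. The members and the 52 lists were chosen with earlier results of these data known. Counts of 15999 genes were simulated with 100 genes changed by 2-fold and 100 by 4-fold, none of them with low counts. Every gene was given the same spread. In that setting 90% of 2-fold and 98% of 4-fold changes were recovered, and 6.47% of calls were false. Most genes were called in the data themselves, so these rates apply to the simulated setting only.

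Alternatives were RLE factors, total counts alone, no filter, a minimum of 10 counts per library, a replicate block, DESeq2 1.42.0, thinned counts, the 2 groups alone, limma 3.58.1 on log2(FPKM + 1) and log2(FPKM + 0.1), the other count table, each library left out and, chosen after seeing the data, protein-coding genes only.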

Additional observations from a re-analysis of the deposited data

Results flagged for a closer look

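The interaction contrasts called 6544 genes whose change from 96 h to 120 h differed between wild-type and Hox-/- Activin A gastruloids, and 786 of these were called with opposite signs in both genotypes. In 76 genes the opposite changes were at least 2-fold in both. The 3 protein-coding genes without an overlapping gene that rose in wild type, fell in Hox-/- and had the smallest p were Cd36, with a difference of -4.41 on the log2 scale (1.87 in wild type and -2.54 in Hox-/-), Krt18, with -4.23 (1.62 and -2.61), and Celsr2, a cadherin of planar cell polarity, with -2.40 (1.02 and -1.38). The corresponding 3 that fell in wild type and rose in Hox-/- were Adam19, a membrane protease, with 3.43 (-1.34 and 2.09), Tbx6 with 2.92 (-1.23 and 1.69), and Gata6 with 3.39 (-1.29 and 2.11).

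Between the treatments, 6861 genes differed in their change with time, and 975 of these were called with opposite signs in wild-type Activin A and wild-type Chiron gastruloids, 170 of them at least 2-fold in both. Genes that rose with Activin A and fell with Chiron were led by Crabp1, with a difference of 5.58 (3.04 and -2.53), Dll1 with 3.19 (1.11 and -2.08) and Aldh1a2 with 4.46 (1.05 and -3.41). Those that fell with Activin A and rose with Chiron were led by Chst15, a sulfotransferase, with -3.62 (-1.05 and 2.57), Sertad4 with -3.71 (-1.15 and 2.56) and Egr1 with -2.80 (-1.45 and 1.36). The wild-type Activin A libraries are shared by both contrasts, and the values of the Chiron contrast come from the fit of the table with both treatments.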

How the results depend on the processing

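Across the alternatives, between 9604 and 13402 genes were called, against 12608, and each count lay within 1.5 times of it. Calls of at least 2-fold fell from 5061 to 2218 with at least 10 counts in every library, which removes genes absent at 1 time or in 1 genotype. Such calls fell to 2531 with limma on log2(FPKM + 1), where the pseudocount shrinks low genes, and to 3146 with protein-coding genes only. The share of those calls that were higher was 50.2%, and it was 60.0% with at least 10 counts, 37.3% with log2(FPKM + 1) and 56.9% with protein-coding genes only. Leaving out 1 library gave 11581 to 12137 calls, and 4969 to 5082 of at least 2-fold. Same-numbered wild-type libraries of the 2 times showed no shared deviation (correlation 0.0214 over 9606 genes). With a single replicate difference per time, this cannot tell whether equal numbers mark paired cultures. The replicate block gave 12600 calls. The interaction counts ranged from 4515 to 6610 for Hox-/- and from 5047 to 6937 for Chiron, the lower values from DESeq2. Of 4983 values of the 321 named genes under alternatives, 4865 kept their direction and side of the threshold, 73 lost a call, 16 gained one and 29 changed sign.

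All of the sign changes were in genes not called in the comparison, and the cause was not tested. With a library left out, log2 fold changes ranged from -0.0022 to 0.1458 for Gata4, -0.0211 to 0.1473 for Gli3, -0.7431 to 0.0693 for Hand1, -1.6117 to 0.2033 for Hoxa13, -0.7151 to 0.2570 for Hoxd13, -0.0889 to 0.0475 for Igf2bp1, -0.0094 to 0.0478 for Lefty2, -0.0893 to 0.2441 for Mesp1, -0.1435 to 1.3504 for Myl7, -0.1315 to 0.1241 for Otx2 and -0.0731 to 0.7114 for Tnnt2. Total counts alone gave 0.0593 for Igf2bp1, 0.0678 for Otx2 and 0.0506 for Tubb3. Thinned counts gave -0.0268 for Gata4, 0.1407 for Hand1 and 0.0018 for Otx2. Without a filter, Eef1a1 was at -0.0009, Igf2r at -0.0154 and Lefty2 at -0.0450, and Lefty2 was also at -0.0110 with at least 10 counts, -0.0002 with DESeq2 and -0.0004 with RLE factors. Hoxa4 was at -3.0406 with log2(FPKM + 1) and -6.1951 with log2(FPKM + 0.1), where the FPKM of some clearly counted genes are listed at 0. Of 832 list medians under alternatives, 48 moved by over 0.5 and 25 changed sign. With at least 10 counts in every library, Hox-/- libraries included, fewer members are tested, and 17 medians moved by over 0.5. Among them, lateral plate mesoderm was at -1.060, brain factors at -0.105, endothelial genes at -0.072, trophoblast genes at -1.550 and Hox genes at -0.734. These were all of the other sign, and that of Hox genes rests on the few members still counted in Hox-/- libraries. Cardiac transcription factors were at 0.041, visceral endoderm proteins at 0.008 and presomitic and somitic genes at 1.043. Neural progenitor factors were at 0.693, Hedgehog genes at 0.786 and germ cell genes at -0.234. Naive pluripotency factors became more negative, from -1.356 to -2.369. Not every moved median is listed. The smaller 120 h libraries limit what could be detected: genes under about 0.327 CPM there lie at the floor.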

Other observations

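Some properties of genes went along with the change, given here as values. Among protein-coding genes, the median log2 fold change was -0.114 for 276 genes with up to 1 kb of exon, -0.041 for 1430 genes of 1 to 2 kb, -0.039 for 4224 of 2 to 4 kb, 0.010 for 5339 of 4 to 8 kb and 0.122 for 2532 longer ones. By chromosome, the 474 protein-coding genes tested on X had a median of -0.144, with 38 at least 2-fold higher and 74 at least 2-fold lower. Among noncoding classes, 153 of 259 genes marked for experimental confirmation in the annotation were at least 2-fold higher, as were 126 of 329 antisense genes and 147 of 355 long intergenic RNAs. Protein-coding parents of the processed pseudogenes were at least 2-fold lower in 7 of 146 cases. The relation of these values to depth or RNA quality was not tested.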
